A study of Mus musculus with 9 samples.

Results

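Dendritic cells are antigen-presenting cells that take up material at the borders of the brain and show peptides from it on MHC class II molecules to T cells. Among CD11b+ cells sorted from mouse brains, they were taken as barcodes with at least 100 UMIs of Cd74, the invariant chain of MHC class II, per 10000 UMIs. A UMI is a tag that lets each captured transcript be counted once. Each barcode also held a UMI of 2 or more of Napsa, Cd209a, Flt3, Zbtb46, Xcr1, Clec9a, Ccr7 and Itgax. It held a UMI of at most 1 of the border macrophage genes Mrc1, Pf4, Cbr2, Cd163 and Lyve1, and none of the B cell genes Cd79a and Ms4a1. Of 30463 kept barcodes, 526 met this rule (1.73%), and 476 of 28655 did so in the 8 libraries other than D2-3.

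The cells came from female C57BL/6J mice of 5 months, perfused with PBS, whose brains were taken without the cerebellum. Ctrl mice received no inhibitor. D0 mice had eaten 1200 mg/kg PLX5622, an inhibitor of the receptor CSF1R, for 14 days, and D2 mice had then been back on a control diet for 2 days. Each of the 3 Ctrl libraries held the cells of 1 brain, and each of the 3 D0 and 3 D2 libraries those of 2 pooled brains, so the library was the replicate. Every group was sorted for live CD11b+ cells, so dendritic cells with little CD11b were not sampled evenly. The libraries held 20257894 to 61230741 UMIs in all, and dendritic cells had medians of 7922 to 15800 UMIs each.

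Conventional dendritic cells depend on the receptor FLT3, and microglia and most macrophages on CSF1R. A cDC1 branch, with XCR1 and CLEC9A, presents captured antigen to CD8 T cells, and a cDC2 branch, with CD209A and CLEC10A, presents it mainly to CD4 T cells. Cells of both branches turn on CCR7 when they mature and move to lymph nodes.

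The label was checked on genes that the rule did not use. H2-Ab1, H2-Aa and H2-Eb1, chains of MHC class II, had means of 10886, 11827 and 10569 CPM, the UMIs of a gene scaled to the same total of UMIs in every library and class, over the 7 libraries with at least 20 dendritic cells. In microglia the same genes had 99.1, 89.4 and 84.7 CPM, and in border macrophages 2212, 2435 and 2283 CPM. In monocytes, H2-Aa was at 17.9 CPM in Ctrl-1, which held 7 of them, and at 269 to 1102 CPM in the other libraries. Ciita, the activator of MHC class II transcription, had a mean of 168 CPM in dendritic cells, 18.7 in border macrophages and 1.05 in microglia. Mgl2, a lectin of cDC2 and macrophages, had 1174 CPM in dendritic cells, 520.5 in border macrophages and 5.02 in microglia. These genes are expressed together with Cd74, which chose the cells, so the levels are a description with no test. Ccr2, also a gene of monocytes, had a UMI in 66.7% to 88.2% of dendritic cells per library. For Mrc1, which the rule allows alone, these were 30% to 58.3%. Counts from 3′ tags do not grow with transcript length, so levels of different genes are set side by side as CPM.

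**Figure D1:**
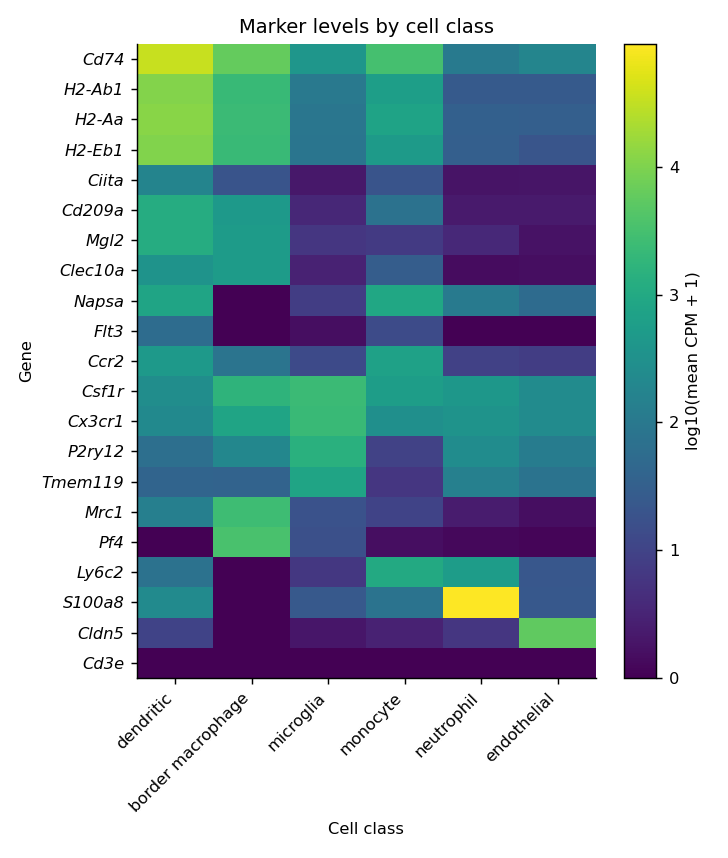
Mean level of marker genes (log10 of mean CPM + 1, colour) in the cell classes, over the libraries with at least 20 cells of the class. H2-Ab1 was at 10886 CPM in dendritic cells and 2212 in border macrophages, whereas Csf1r was at 270.3 CPM in dendritic cells and 2364 in microglia.

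The promoters of H2-Aa and H2-Eb1 are shown because these chains of MHC class II mark the cells. The sequences are from RefSeq (GRCm38.p6) and run from 250 bases before to 50 after the start of the gene, 5′ to 3′ on the strand of the gene. Capitals mark ATTGG or CCAAT, the same box read on either strand, known from the conserved upstream region of MHC class II genes. The H2-Aa promoter lies at chr17:34287774-34288073 on the minus strand and that of H2-Eb1 at chr17:34305617-34305916 on the plus strand.
H2-Aa: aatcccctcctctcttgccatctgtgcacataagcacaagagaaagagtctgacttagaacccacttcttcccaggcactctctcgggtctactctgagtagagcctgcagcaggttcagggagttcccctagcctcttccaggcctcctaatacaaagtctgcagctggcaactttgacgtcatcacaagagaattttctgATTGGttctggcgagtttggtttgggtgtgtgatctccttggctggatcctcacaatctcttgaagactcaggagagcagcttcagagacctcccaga
H2-Eb1: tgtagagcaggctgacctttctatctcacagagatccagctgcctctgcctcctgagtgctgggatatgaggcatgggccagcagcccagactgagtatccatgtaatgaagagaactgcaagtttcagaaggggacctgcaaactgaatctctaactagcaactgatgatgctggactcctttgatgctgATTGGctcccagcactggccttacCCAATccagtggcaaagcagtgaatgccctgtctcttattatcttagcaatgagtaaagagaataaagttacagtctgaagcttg
Of 13 genes on a list of MHC class II presentation genes, 10 had a promoter in the table. Counted by promoter, 8 of their 12 promoters held the box, as did 37.4% of all 32851 promoters of the same length. A match is a description of the letters and shows no bound factor.

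Some libraries stood apart. In D2-3, 42.8% of kept barcodes were microglia, 24.7% monocytes and 16.3% neutrophils, whereas microglia made up 71.1% to 93.5% of the 8 other libraries, so D2-3 is shown apart. According to the matrix headers, Ctrl-2, Ctrl-3 and D2-3 were made with Cell Ranger 3.1.0 and the 6 others with 3.0.2. Of 30365 distinct kept barcodes, 98 occurred in 2 or more libraries, and 0 were a dendritic cell in more than 1 of them. No doublet caller was run. Of the 526 dendritic cells 47 carried more microglia transcripts than 1/4 of the median microglia of their library, 5 of 46 in Ctrl, 32 of 290 in D0 and 10 of 190 in D2. Results on shares are also given without these cells.

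Just inside the rule, 161 dendritic cells held exactly 2 of the 8 genes, and 23 held 100 to 150 UMIs of Cd74 per 10000. Just outside it, 122 barcodes had enough Cd74 but only 1 of the 8 genes, 38 fell between 50 and 100 UMIs of Cd74 per 10000, and 47 held 2 border macrophage genes. The median dendritic cell had 373 UMIs of Cd74 per 10000.

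Dendritic cells made up a larger share of the sorted cells after the inhibitor and 2 days later. In Ctrl brains they were 0.493%, 0.466% and 0.351% of kept barcodes (21, 12 and 13 cells). In D0 brains they were 1.62%, 2.79% and 3.19% (67, 139 and 84 cells). In D2-1 and D2-2 they were 1.40% and 3.52% (55 and 85 cells). Every D0 and D2 library lay above every Ctrl library. The exact binomial 95% intervals, which cover counting error only, reached no higher than 0.812% in Ctrl and no lower than 1.05% in the D0 and D2 libraries. The mean was 0.437% ± 0.0750 (SD, n = 3) in Ctrl and 2.53% ± 0.817 (SD, n = 3) in D0, 5.80-fold higher. In D2 it was 2.46% ± 1.497 (SD, n = 2), 5.63-fold higher than in Ctrl.

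By edgeR's quasi-likelihood test over the 9 cell classes, the share rose by a log2 of 2.52 in D0 (SE 0.687, 95% interval 0.98 to 4.07, adjusted p = 0.0208). In D2 it rose by 2.48 (SE 0.730, 95% interval 0.84 to 4.12, adjusted p = 0.0231). In each comparison 33.3% of the classes passed the test. The call rested on single libraries, while the D0 log2 change stayed above 2. In D0 the call was lost without Ctrl-1 (log2 2.63, adjusted p = 0.0547), Ctrl-3 (log2 2.39, adjusted p = 0.15) or D0-3 (log2 2.33, adjusted p = 0.0832, edgeR). In D2 the call was lost without Ctrl-1 (log2 2.58, adjusted p = 0.0587, edgeR) or Ctrl-3 (log2 2.34, adjusted p = 0.131, edgeR). It was also lost without D2-2, which left a single D2 library and a log2 change of 1.67. The share in D2-3, 2.77% (50 of 1808), lay within the range of the other treated libraries. Without the cells rich in microglia transcripts the D0 share was 5.80-fold and the D2 share 5.87-fold that of Ctrl. The two-sided exact permutation test gave p = 0.1 for D0 and p = 0.2 for D2, the smallest that these numbers of libraries allow. Of the 8 libraries used, those with the 3.1.0 header were both Ctrl. With the version as a term the log2 changes were 2.35 (adjusted p = 0.136) and 2.30 (adjusted p = 0.135).

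**Figure D2:**
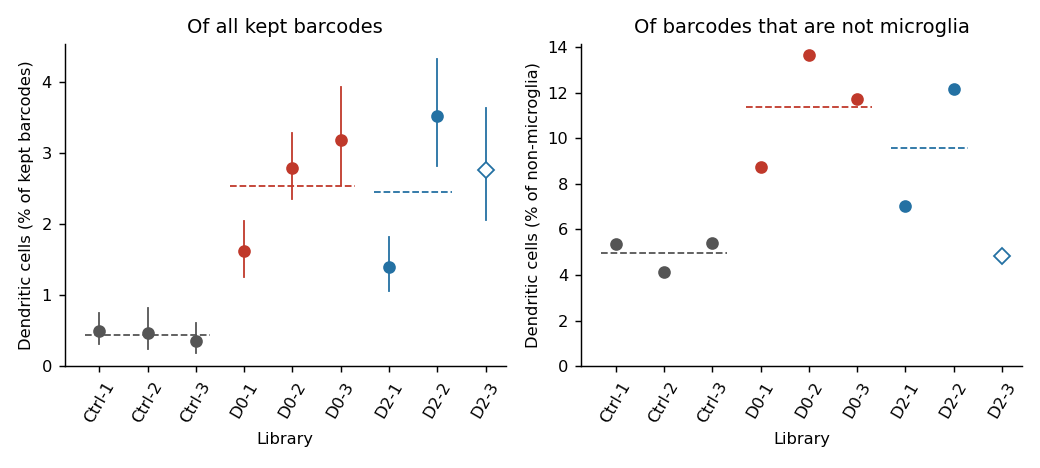
Dendritic cells per library as a percentage of all kept barcodes (bars are exact 95% intervals) and of barcodes that are not microglia. Dashed lines are group means and the open diamond is D2-3, left out of the mean. D0, D2-1 and D2-2 sit between 1.40% and 3.52% of all barcodes, above the Ctrl libraries, and between 7.02% and 13.7% of those that are not microglia, against 4.11% to 5.39% in Ctrl.

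A share depends on the other cells in the sort, and microglia are the cells the inhibitor removes. Cell numbers per brain were not analysed here, so more dendritic cells and fewer of the others cannot be told apart. Microglia were called by marker genes. The study reported lower homeostatic genes in microglia under the inhibitor. Barcodes that met the rule of no cell class were 2.99% ± 2.495 of kept barcodes in Ctrl (SD, n = 3). They were 6.46% ± 3.34 in D0 (SD, n = 3), overlapping Ctrl, and 10.1% ± 0.603 in D2 (SD, n = 2). These barcodes count in the total without microglia, and whether microglia with few marker transcripts were among them was not tested. Per 1000 microglia there were 4.81 ± 0.916 dendritic cells in Ctrl, 32.9 ± 12.1 in D0 (SD, n = 3 each) and 33.5 ± 22.6 in D2 (SD, n = 2). With microglia left out of the total, dendritic cells were 4.96% ± 0.735 in Ctrl, 11.4% ± 2.48 in D0 and 9.58% ± 3.63 in D2. These shares did not overlap between Ctrl and the D0, D2-1 and D2-2 libraries, whereas D2-3, at 4.84%, lay within the Ctrl range of 4.11% to 5.39%, and the edgeR test missed the threshold (log2 1.19, adjusted p = 0.130, and log2 0.95, adjusted p = 0.416).

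Set against other blood-derived cells, the groups overlapped. Per 100 neutrophils, dendritic cells numbered 150, 13.5 and 38.2 in Ctrl, 50.4, 26.5 and 48.6 in D0, and 64.0 and 52.5 in D2. Per 100 monocytes they numbered 300, 17.1 and 61.9 in Ctrl, 209, 139 and 118 in D0, and 153 and 152 in D2. The Ctrl libraries spanned those of D0, D2-1 and D2-2 in both ratios, with Ctrl-1, which held 14 neutrophils and 7 monocytes, at the top. D2-3 had 16.9 per 100 neutrophils, within the Ctrl range, and 11.2 per 100 monocytes, below every other library.

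Border macrophages, the other cells of the brain's surfaces rich in MHC class II, moved the opposite way. Their microglia transcripts had to stay within 1/4 of the median microglia of the library. That median was 335, 400 and 385 UMIs per 10000 in Ctrl, 252, 255 and 276 in D0, and 207 and 216 in D2. The part of this moving limit in the shares was not tested. Border macrophages were 1.13, 0.388 and 0.892 in Ctrl, 0.0482, 0.0201 and 0.0758 in D0, and 0.0508 and 0.0827 in D2, in percent of kept barcodes. These are 1 or 2 cells in each of the D0, D2-1 and D2-2 libraries against 10 to 48 in Ctrl. The share fell by 4.07 on the log2 scale in D0 (adjusted p = 0.0109, edgeR) and by 3.57 in D2 (adjusted p = 0.0231, edgeR). The D2 call was lost without Ctrl-3 (log2 -3.49, adjusted p = 0.131, edgeR). Without D2-1 or D2-2, which leaves a single D2 library, the log2 changes were -3.23 and -3.90. The share of barcodes called microglia by marker genes fell by 0.22 and 0.27 on the log2 scale (adjusted p = 0.0329 and 0.0231, edgeR). Both calls were lost without Ctrl-3 (log2 -0.20 and -0.25, adjusted p = 0.151 and 0.131, edgeR). With the header version as a term they were lost too (log2 -0.22 and -0.27, adjusted p = 0.136 and 0.115, edgeR). They were also lost without Ctrl-1, and the D0 call without D0-2 or D0-3. Neutrophils had log2 changes of 2.12 and 1.51 (adjusted p = 0.0848 and 0.209, edgeR), and monocytes of 0.68 and 0.50 (adjusted p = 0.515 and 0.663, edgeR). These values rested on Ctrl-2. Without it neutrophils had log2 changes of 3.44 and 2.83 (adjusted p = 0.00682 and 0.0274, edgeR). Monocytes then had 2.31 and 2.13 (adjusted p = 0.0491 and 0.0711, edgeR).

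**Figure D3:**
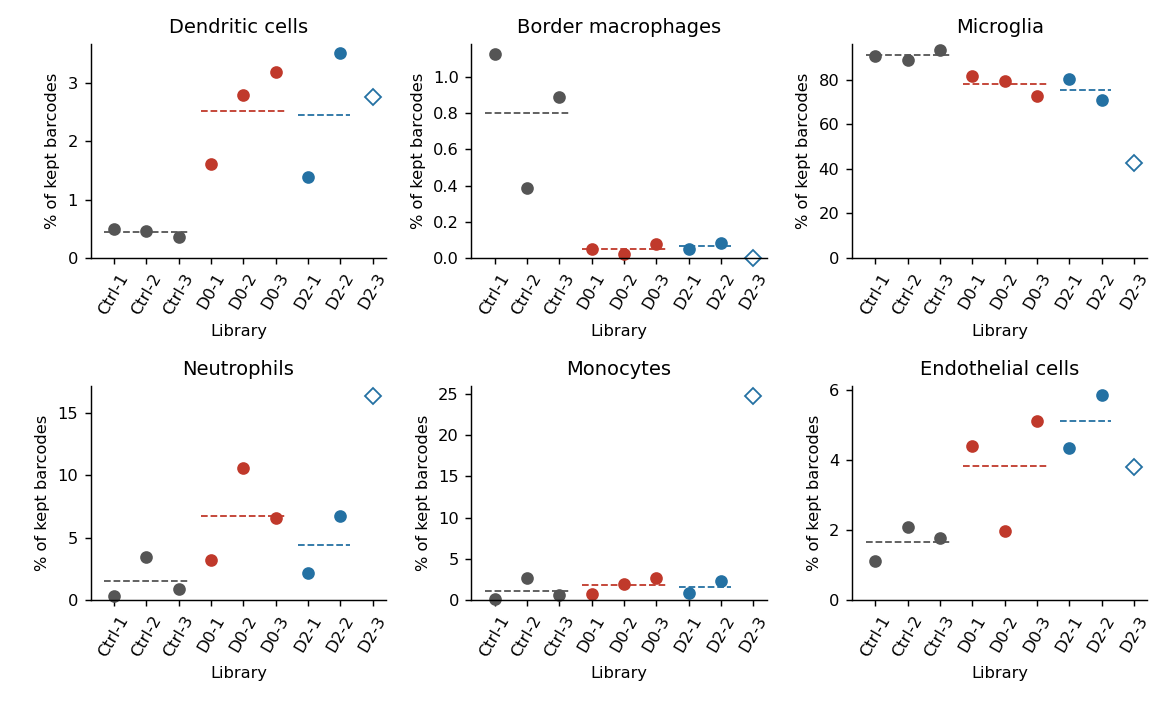
Share of the cell classes in each library, as a percentage of kept barcodes. Points are libraries, dashed lines are group means without D2-3, and the open diamond is D2-3. Dendritic cells lie higher and border macrophages lower in every D0 and D2 library than in every Ctrl library.

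The branches were described by genes that also chose the cells, so no test is given. A UMI of Xcr1 or Clec9a marked 33 of the 526 cells (6.27%) as cDC1. Of the remaining cells, Ccr7 marked 61 (11.6% of all), Cd209a then marked 376 (71.5%), and 56 held none of these genes. Cells with Xcr1 or Clec9a were 4, 1 and 1 in the Ctrl libraries, 5, 8 and 2 in D0, 3 and 6 in D2, and 3 in D2-3. Cd209a cells were the most numerous class in every library, with 50% to 61.9% in Ctrl, 65.5% to 79.1% in D0, 83.6% and 84.7% in D2, and 60% in D2-3. Cells with none of these genes were 19.0%, 41.7% and 23.1% in Ctrl and 10.4%, 5.76% and 9.52% in D0. In D2 they were 5.45% and 3.53%, and in D2-3 30%. Ctrl thus overlapped neither D0 nor D2-1 and D2-2. The part of this mix in the gene levels of dendritic cells was not tested.

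Cells with Ccr7 were unevenly spread over D0. They were 0 of 21, 0 of 12 and 2 of 13 in Ctrl, 2 of 67, 34 of 139 and 16 of 84 in D0, 4 of 55 and 5 of 85 in D2, and 3 of 50 in D2-3. D0-2 and D0-3 had the most, and D0-1 fewer than the D2 libraries. The 10 listed genes of plasmacytoid cells summed to 394 to 680 CPM, with 2 to 6 of them at 0 in a library. Bst2 was the highest of them, at 179 to 428 CPM. Ly6d and Klk1 had no UMI in any library, and Ccr9 was at most 8.69 CPM. Whether plasmacytoid cells were among the dendritic cells was not tested.

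Gene levels within dendritic cells were compared on UMIs summed per library. Only Ctrl-1 among the Ctrl libraries held the set minimum of 20 cells, and its spread was assumed to be like that of D0 and D2. A fit with a minimum of 10 cells, which takes in 8 libraries, is therefore given beside it. With 20 cells, edgeR called 0 of 7600 genes in D0 and 0 in D2 (0% each), with 536 and 400 genes at an unadjusted p under 0.05. In percent of the genes tested, these were 4.34% higher and 2.71% lower in D0, and 3.16% higher and 2.11% lower in D2. With 10 cells edgeR called 0 of 6233 genes in D0 and 1 in D2 (0.016%). At an unadjusted p under 0.05 there were 3.13% higher and 2.86% lower in D0, and 3.27% higher and 3.69% lower in D2. DESeq2 called 1 and 2 genes with 20 cells, and 4 and 7 with 10 cells. Among the 6233 genes, 4.67% lay higher in every D0 than in every Ctrl library and 6.98% lower, and for D2-1 and D2-2 these were 10.8% and 9.66%.

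The gene called in D2 was Clec10a (ENSMUSG00000000318, chr11:70156197-70170834, plus strand, GRCm38), a lectin that binds galactose sugars and marks cDC2. Its level was 164, 178 and 131 CPM in Ctrl, 376, 367 and 279.5 in D0, 491 and 527 in D2, and 289 in D2-3. Ctrl, D0 and D2 did not overlap, and D2-3 lay within the D0 range. With 10 cells, Clec10a rose by a log2 of 1.69 in D2 (SE 0.232, adjusted p = 0.0389, edgeR). Its D0 log2 change was 1.21 (SE 0.216, adjusted p = 0.328, edgeR). With 20 cells the D2 log2 change was 1.73 with an adjusted p of 0.464 (edgeR). With 10 cells it was called without D0-1, and without any 1 of the other 7 libraries no gene was called. None was called either with 10 cells and the header version as a term, D2-3 included, each cell thinned, or the cells rich in microglia transcripts left out. Over 31 settings it was called in 9, with adjusted p from 3.0e-06 to 0.964. Clec10a was found in 11 of 21, 6 of 12 and 6 of 13 cells in Ctrl, 35 of 67, 92 of 139 and 55 of 84 in D0, and 41 of 55 and 69 of 85 in D2. Border macrophages, which held Clec10a at 520.4 CPM in the 2 Ctrl libraries with enough of them, were nearly absent from D0 and D2, and neutrophils and endothelial cells had means of 0.489 and 0.524 CPM. Cd209a cells were 50% to 61.9% of dendritic cells in Ctrl and 83.6% and 84.7% in D2. The part of free RNA or of this mix in the Clec10a levels was not tested. Mgl2 is a close relative of Clec10a, so reads that fit both genes are uncertain.

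Lists of genes are counted without the genes of the cell rule. Of the cDC2 genes (12 listed, 10 tested with 10 cells), Clec10a was the 1 called. Mgl2 had 1453, 614 and 1421 CPM in Ctrl, 1221, 1174 and 1124 in D0, and 1037 and 1183 in D2, with the groups overlapping. Klrd1, a receptor shared with NK cells, had 232, 222 and 138 CPM in Ctrl, 279, 321 and 214 in D0, and 348 and 287 in D2. Its D2 libraries lay above Ctrl, with a log2 change of 0.67 and an adjusted p of 0.638 (edgeR, 10 cells). Sirpa, an inhibitory receptor of cDC2 and macrophages, had 176, 274 and 188 CPM in Ctrl, 169, 152 and 131 in D0, and 124 and 121 in D2. Every D0 and D2 library was below every Ctrl library (log2 -0.38 in D0 and -0.78 in D2, adjusted p = 0.806 and 0.559, edgeR, 10 cells). Of the cDC1 genes (10 listed, 10 tested with 10 cells), 0 were called.

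**Figure D4:**
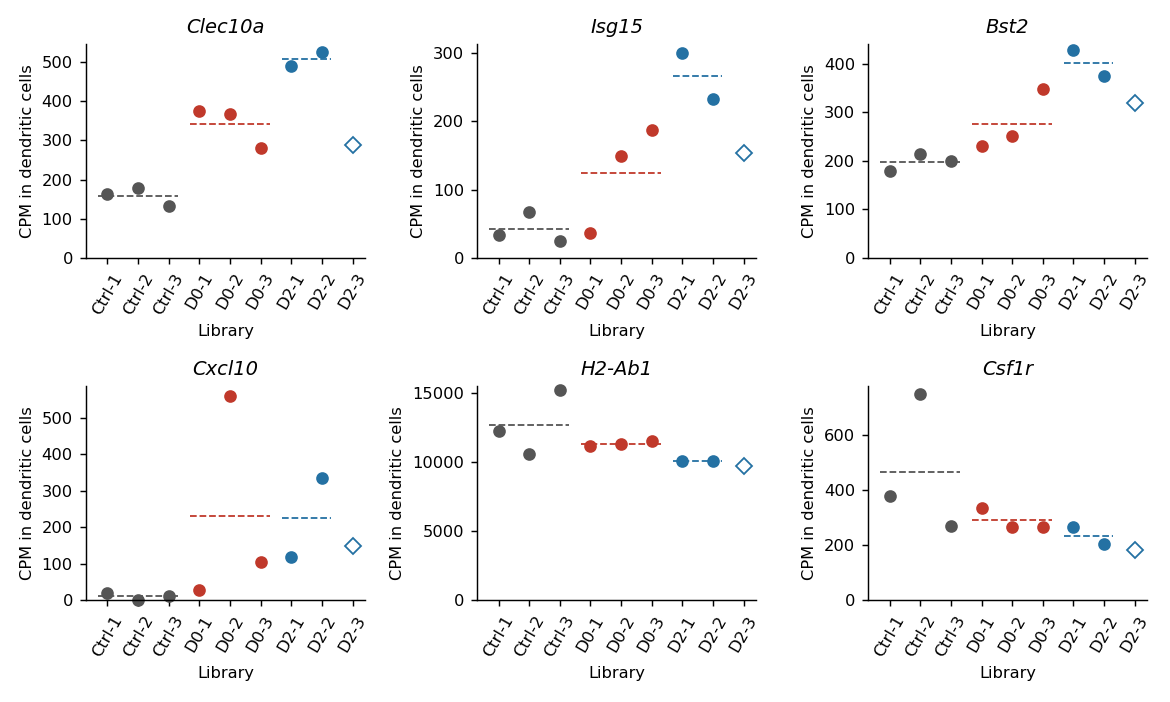
Level of 6 genes in the dendritic cells of each library, in CPM. Dashed lines are group means without D2-3, which is the open diamond. Clec10a, Bst2 and Cxcl10 lie above Ctrl in D0 and D2, Isg15 lies above it in D2, and H2-Ab1 and Csf1r overlap between Ctrl and D0.

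Interferon-stimulated genes, which restrain viruses and are turned on by type I interferon, had many members above Ctrl but 0 called. Of 20 genes on the list 19 were tested with 10 cells. In D2, 13 lay higher in both libraries than in every Ctrl library (10.8% over all genes), and 12 had an unadjusted p under 0.05, all upward (3.27% over all genes). In D0, 5 lay higher in every library (4.67% over all genes) and 8 had such a p, all upward (3.13% over all genes). The median log2 change was 1.29 in D2 and 0.93 in D0, against -0.01 and 0.00 over all genes tested. With 20 cells the medians were 1.5005 and 1.17, with 9 and 7 genes at such a p, all upward.

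Isg15, a ubiquitin-like protein made in response to interferon, had 33.6, 66.6 and 25.0 CPM in Ctrl, 36.7, 149 and 188 in D0, 299.9 and 232 in D2, and 154 in D2-3. D2 lay above Ctrl, and D0-1 lay within it. The log2 change in D2 was 2.73 (SE 0.606, adjusted p = 0.296, edgeR, 10 cells). Over 31 settings its D2 adjusted p ranged from 1.6e-10 to 1.00, with 5 calls. The 3 highest cells held 34.8%, 67.3% and 33.5% of the Isg15 UMIs in the D0 libraries, and 54.3% and 61.4% in D2. An Isg15 UMI was found in 19.0% to 46.0% of dendritic cells and in 40.7% to 56.3% of endothelial cells. Free RNA was not tested for Isg15, and the share of dendritic cells with a UMI is not read as expression. Bst2, which tethers virus particles to the cell, had 179, 215 and 200.3 CPM in Ctrl, 229.6, 252 and 347 in D0, and 428 and 375 in D2. All its D0 and D2 libraries lay above Ctrl (D2 log2 1.02, adjusted p = 0.372, edgeR, 10 cells).

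Cxcl10, a chemokine that draws activated T cells, had 18.7, 0 and 12.5 CPM in Ctrl, 28.7, 559 and 104 in D0, and 117 and 335 in D2. Ctrl overlapped neither D0 nor D2, and the 3 highest cells held 62.9% to 100% of its UMIs in each of these libraries. A Cxcl10 UMI was in 4.48%, 22.3% and 26.2% of D0 dendritic cells. In D0 neutrophils these were 12.8%, 8.76% and 10.4%, and in endothelial cells 5.49%, 12.2% and 11.9%. The part of free RNA was not tested. Rsad2, an antiviral enzyme, had 0, 0 and 0 CPM in Ctrl, 9.57, 105 and 19.8 in D0, and 36.9 and 65.3 in D2, with no UMI in 46 Ctrl cells. Ifitm3, an antiviral membrane protein and the most abundant gene of the list, had 1195, 3663 and 1747 CPM in Ctrl, 1414, 2075 and 2696 in D0, and 1954 and 2376 in D2. Ctrl-2 was the highest of these 8 libraries, and the D2 log2 change was 0.96 with 20 cells and -0.02 with 10 (adjusted p = 0.904 and 1.00, edgeR). The summed level of the list was 2159, 5623 and 3211 CPM in Ctrl, 2628, 4930 and 5188 in D0, 4575 and 5013 in D2, and 5362 in D2-3, overlapping between all groups. Ifit3 was at 22.0 CPM in D2-3 against 82.6 and 105 in D2-1 and D2-2.

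MHC class II genes, which load and present peptides, are expressed with Cd74, which chose the cells in every library, so they are described with no test. Over 11 of them other than Cd74, the median log2 changes were 0.07 and -0.11 with 10 cells, and 0.10 and 0.01 with 20. H2-Ab1, the beta chain of I-A, had 12280.5, 10573 and 15243 CPM in Ctrl, 11179.6, 11332 and 11532 in D0, 10065 and 10091 in D2, and 9719 in D2-3. D0 lay within Ctrl and D2 just below it. The log2 change was -0.08 in D0 and -0.36 in D2, by edgeR with 10 cells. H2-DMa, which helps load peptides onto class II, had 1087, 954 and 1277 CPM in Ctrl, 1239, 1191 and 1126 in D0, and 1039 and 1047 in D2. All D0 and D2 libraries lay within the Ctrl range. MHC class I genes (12 listed, 11 tested with 10 cells) had 0 called and median log2 changes of 0.07 and 0.06. With 20 cells, where Ctrl-1 stood alone, the medians were 0.52 and 0.43, with 12 of 12 above 0 in each comparison and 0 called.

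Costimulation and cytokine genes (12 listed, 7 tested with 10 cells) had 0 called. Cd83, a surface protein of mature dendritic cells, had 844, 1309.7 and 1696 CPM in Ctrl, 451, 1310.4 and 1174 in D0, and 643 and 803 in D2. D0 overlapped Ctrl and D2 lay below it (log2 -0.85, adjusted p = 0.745, edgeR, 10 cells). Il12b, the p40 subunit of interleukins 12 and 23, had no UMI in the 46 Ctrl cells or the 190 D2 cells, D2-3 included. In D0 it had 52, 350 and 589 UMIs, held by 1, 4 and 2 cells. Those 7 of 290 cells (2.41%) gave D0 a pooled level of 310.3 CPM. Of the 7 cells 6 held Ccr7, and these carried 98.8% of the UMIs. By counting error alone, 0 of 46 cells allows a share of cells with a UMI of up to 6.52% in Ctrl, and 0 of 190 one of up to 1.58% in D2. A difference in that share between Ctrl and D0 was therefore not detectable. The limits pool the cells of a group and leave out the spread between libraries, so none is read for D2 either. Most Il12b UMIs lay outside dendritic cells, with 94, 149 and 154 in all deposited barcodes of the Ctrl libraries, 207, 2420 and 2988 in D0, 416 and 170 in D2, and 4361 in D2-3. The adjusted p of Il12b in D0 was 0.328 (edgeR, 10 cells), and over 30 settings it ranged from 4.4e-22 to 1.00, with 5 calls.

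Genes of mature, migratory cells (13 listed, 8 tested with 10 cells) had 0 called, with median log2 changes of 1.11 in D0 and 0.33 in D2, and of 1.28 and 0.85 with 20 cells. Ccl22, a chemokine for regulatory T cells, had 52.3, 7.40 and 169 CPM in Ctrl, 78.1, 153 and 191 in D0, and 43.5 and 71.9 in D2. Ccl5, a chemokine for T cells and monocytes, had 157, 0 and 0 CPM in Ctrl, 30.3, 595 and 417 in D0, and 1049.7 and 118 in D2. Both overlapped between Ctrl and each treated group. Relb, an NF-kappaB subunit of dendritic cell maturation, had 11.2, 37.0 and 56.3 CPM in Ctrl, 31.9, 90.1 and 69.2 in D0, and 80.4 and 56.4 in D2. D2 lay above Ctrl by a narrow gap, and D0-1 lay within it.

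Among growth factor receptors, Flt3 was higher and Csf1r lower in dendritic cells than in microglia, as a description with no test. Flt3 had a mean of 55.3 CPM in dendritic cells, 12.7 in monocytes, 0.499 in microglia and 0 in neutrophils and endothelial cells, but it was in the rule. Csf1r had 377, 747 and 269 CPM in Ctrl, 333, 267 and 266 in D0, 265 and 203 in D2, and 181 in D2-3 in dendritic cells. D0 overlapped Ctrl and D2 lay below it (log2 -0.57 in D0 and -0.98 in D2, adjusted p = 0.799 and 0.572, edgeR, 10 cells). Ctrl-2, with 12 dendritic cells, was the highest, and over 31 settings the D2 log2 change ranged from -1.29 to -0.48. In Ctrl-2 the 3 highest cells held 75.2% of the Csf1r UMIs. Its dendritic cells also had the highest sum of monocyte genes, 1761 CPM, and the part of monocyte transcripts was not tested. Microglia genes lay lower as well, with 13 of 14 below 0 in D2, 5 at an unadjusted p under 0.05 (3.69% over all genes, lower) and a median log2 change of -0.61, and their part in the Csf1r values was not tested. The mean of 270.3 CPM over 7 libraries stands beside 2364 in microglia, 1689 in border macrophages, 587 in monocytes and 247 in endothelial cells, which should lack the gene. Between 55.3% and 76.2% of dendritic cells held a Csf1r UMI, against 12.7% to 34.8% of endothelial cells, at median depths of 7922 to 15800 and 3002.5 to 6716 UMIs. As a level, Csf1r in dendritic cells was close to that in endothelial cells, and free RNA was not told apart from expression.

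Of the growth factor receptors (7 listed, 7 tested with 10 cells), 0 were called. Csf2ra, a subunit of the GM-CSF receptor, had 303, 496 and 238 CPM in Ctrl, 241, 226 and 272 in D0, and 187 and 174 in D2. D2 lay below Ctrl (log2 -0.92, adjusted p = 0.539, edgeR, 10 cells). Il4ra, a subunit of the interleukin 4 receptor, had 11.2, 22.2 and 18.8 CPM in Ctrl, 19.1, 28.9 and 39.5 in D0, and 56.5 and 33.2 in D2. D2 lay above Ctrl (log2 1.40, adjusted p = 0.638, edgeR, 10 cells).

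Transcription factors of the lineage (14 listed, 14 tested with 10 cells) had 0 called and median log2 changes of 0.03 in D0 and 0.0027 in D2, and of 0.22 and 0.02 with 20 cells. Irf8, needed for cDC1, had 85.9, 133 and 263 CPM in Ctrl, 161, 138 and 97.1 in D0, and 86.9 and 78.6 in D2. Irf4, used by cDC2, had 56.0, 37.0 and 18.8 CPM in Ctrl, 49.4, 31.6 and 36.9 in D0, and 28.3 and 27.7 in D2. Both overlapped between Ctrl and each treated group. Chemokine receptors (7 listed, 5 tested with 10 cells) had 0 called. Ccr2, which brings cells out of the marrow, had 411, 414 and 363 CPM in Ctrl, 472, 385 and 549 in D0, and 426 and 557 in D2, with D2 just above Ctrl. Lectins and Toll-like receptors (12 listed, 7 tested with 10 cells) had 1 called, Clec10a in D2.

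Immediate-early and stress genes, which also respond to tissue digestion, had a lower sum in treated dendritic cells. The summed level of 16 genes was 19127, 21369 and 20226 CPM in Ctrl, 12868, 17669.5 and 16565 in D0, 15339 and 17372 in D2, and 12588 in D2-3. Every treated library lay below every Ctrl library, while 0 of the 16 genes were called and the median log2 changes were -0.27 and -0.47 with 10 cells. With 20 cells they were -0.08 and -0.10, with 6 of the 16 genes above 0 in each comparison. Egr1, an early response factor, had a D0 log2 change of -1.40 with 20 cells and -0.87 with 10 (adjusted p = 0.705 and 0.782, edgeR). Inflammatory genes (14 listed, 13 tested with 10 cells) had 0 called, with median log2 changes of 0.29 and -0.19, and of 1.29 and 0.60 with 20 cells. Il1b, a cytokine of innate immunity, had 1755, 4365 and 5346 CPM in Ctrl, 1207, 5619 and 6205 in D0, and 3058 and 3253 in D2, with overlap in both comparisons. Ctrl-1 and D0-1 were the lowest libraries, and the D0 log2 change was 1.55 with 20 cells, where Ctrl-1 stood alone for Ctrl, and 0.29 with 10 cells (adjusted p = 0.707 and 0.946, edgeR). Of Il1b, Lyz2, Cd52 and Lgals3, named by the study in microglia and so chosen on these libraries, 0 were called in dendritic cells.

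Mitotic dendritic cells, with a UMI in 2 or more of 8 mitotic genes, were few. They were 1 of 21, 0 of 12 and 0 of 13 in Ctrl, 5 of 67, 16 of 139 and 7 of 84 in D0, 3 of 55 and 5 of 85 in D2, and 4 of 50 in D2-3. In D0 they were 7.46%, 11.5% and 8.33%, beside 6.12%, 24.1% and 22.6% of microglia and 9.02%, 12% and 1.16% of neutrophils and 0.549%, 1.02% and 3.70% of endothelial cells. The dendritic share was above that of endothelial cells in the 3 D0 libraries and below that of neutrophils in D0-1 and D0-2. Ngp, a gene of immature neutrophils, had a UMI in 17.3%, 60.4% and 28.3% of the D0 neutrophils, so these are no baseline without division. Median depths in D0 were 8907, 10858 and 13212.5 UMIs in dendritic cells, 1754, 3738 and 3305 in neutrophils and 3002.5, 4881.5 and 4035 in endothelial cells. After each cell was thinned to 2000 UMIs, the dendritic shares were 6.06%, 1.53% and 2.38% in D0 (endothelial cells 0.781%, 1.16% and 1.69%), 0% in Ctrl, and 3.70% and 1.30% in D2. Of the proliferation genes (22 listed, 11 tested with 10 cells) 0 were called, and Mki67, found in dividing cells, had a D2 log2 change of 2.98 (adjusted p = 0.169, edgeR). Over 30 settings that change ranged from -0.30 to 7.10 and its adjusted p from 0.00309 to 1.00, with 3 calls.

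Markers of other cells were low but not even. The summed level of 14 microglia genes in dendritic cells was 2913, 3344 and 2348 CPM in Ctrl, 3069.6, 2577 and 1718 in D0, 2608 and 1729 in D2, and 783 in D2-3. The median cell held 2.99% to 4.999% of the level of the median microglia of its library, and 7.56% in D2-3, beside 2.58% to 10.1% in neutrophils. All 14 genes were found in the 8 libraries other than D2-3, where 2 were at 0. The part of these transcripts in the results on single genes was not tested. The 8 neutrophil genes summed to 29.9, 66.6 and 37.6 CPM in Ctrl, 43.1, 3505 and 49.4 in D0, 47.8 and 188 in D2, and 1000.2 in D2-3. D0-2 and D2-3 were far above the others, with S100a9 highest, and 3 cells of D0-2 and 1 of D2-3 had the S100a8 and S100a9 level of neutrophils. Monocyte genes (10 listed) summed to 515, 1761 and 701 CPM in Ctrl, 636, 922 and 1323 in D0, 811 and 1155 in D2, and 1536 in D2-3, with Ccr2 or Plac8 highest. Ace and Treml4, genes of nonclassical monocytes, were at 259 and 133 CPM in Ctrl-2 and 110 and 56.9 in D2-3, and at most 8.69 and 6.52 in the other libraries. The 10 T and NK cell genes summed to 7.40 to 84.8 CPM, led by Il7r in every library but Ctrl-3, with Cd3e at 0 throughout. The 7 B cell genes summed to 93.2 to 244 CPM, mostly Ighm, with 5 or 6 at 0. The 6 endothelial genes summed to 22.2 to 248 CPM, and the 10 border macrophage genes to 224 to 489 CPM, led by Clec12a or Mrc1.

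The D0 effect in dendritic cells was then compared with that in microglia of the same libraries, in a fit with an interaction term. With the minimum of 20 dendritic cells, Ctrl was Ctrl-1 alone for both cell types, and the p-values assume that Ctrl libraries vary like those of D0 and D2, so each difference is followed by that of the fit with 10 cells, which holds 3 Ctrl libraries. Means over 3 libraries, printed beside them, belong to the latter. The counts that follow hold Itgax among the lower genes and Mrc1, H2-Aa, H2-Eb1 and H2-Ab1 among the higher. These are genes of the rule or are expressed with Cd74, which chose the cells, and they are given no test. The effect differed for 104 of 12687 genes by edgeR's quasi-likelihood test at an adjusted p under 0.05, lower in dendritic cells for 93 (0.733%) and higher for 11 (0.0867%). With 10 cells it was lower for 205 (1.68%) and higher for 56 (0.46%) of 12171 genes, and 94 of the 104 were called again, all in the same direction. Without Ctrl-1 that fit called 126 genes and without D0-2 155. With D2-3 in the fit, 1 gene was called, Bhlhe40, and without D0-1 and without D0-3 there were 234 and 187. For 92 of the 93 lower genes microglia had a higher mean in D0 than in Ctrl, and for the 11 higher genes microglia had a lower mean. The dendritic levels of D0 and Ctrl overlapped for 89 of the 104 (85.6%), beside 88.4% of the 6233 genes tested within dendritic cells.

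Cell cycle genes were among those with a lower effect in dendritic cells. Of 22 genes on the proliferation list, 7 were lower (0.733% over all genes), Cdca8, Mki67, Pclaf, Rrm2, Stmn1, Top2a and Tpx2, and the 7 were called again with 10 cells. The study named Mki67, Top2a and Stmn1 for a cluster enriched in D0 and D2 of these libraries. The count is therefore a description, and the Mki67 p-values are no independent support. Mki67 had 1.85 ± 0.595 CPM in Ctrl and 110.2 ± 7.15 in D0 microglia (SD, n = 3 each). In dendritic cells it had 11.2, 7.40 and 6.26 CPM in Ctrl and 39.9, 17.2 and 22.5 in D0, without overlap, where the Ctrl levels are 3, 1 and 1 UMIs, the 3 of Ctrl-1 in 1 cell. The summed level of the list in dendritic cells was 497 CPM in Ctrl-1 against 81.4 and 113 in Ctrl-2 and Ctrl-3. The difference was -4.54 (SE 1.14, adjusted p = 0.0418, edgeR), and -4.36 with 10 cells (adjusted p = 0.000847, edgeR). The Mki67 call was lost in 6 of 19 alternatives, among them the fits without D0-2, D2-1 or D2-2 (adjusted p = 0.0576, 0.116 and 0.106) and with 10 cells without Ctrl-1 (0.218, edgeR). Hist1h1b, a linker histone made in S phase, had 0.440 ± 0.125 and 89.2 ± 78.3 CPM in Ctrl and D0 microglia, and 7.47 ± 12.9 and 35.7 ± 25.8 in dendritic cells (SD, n = 3 each). Its difference was -6.55 (SE 1.19, adjusted p = 0.00103, edgeR), and -5.66 with 10 cells (adjusted p = 7.1e-05, edgeR). In Ctrl dendritic cells Hist1h1b was at 22.4 CPM in Ctrl-1 and 0 in Ctrl-2 and Ctrl-3, and with 10 cells and without Ctrl-1 the difference was 4.08 (SE 15.4). Racgap1, needed for cytokinesis, and Dna2, a nuclease of replication, had differences of -4.53 and -3.78 (adjusted p = 0.00562 and 0.000158, edgeR), and -4.29 and -3.24 with 10 cells (adjusted p = 5.2e-05 and 3.3e-07, edgeR).

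Of 14 inflammatory genes 6 were lower (0.733% over all genes), Ccl2, Ccl4, Il1b, Nfkbia, Ptgs2 and Tnf, and 5 were called again with 10 cells, without Ccl4 (-0.70, adjusted p = 0.129, edgeR). Ccl2, which draws monocytes, had 762, 155 and 382 CPM in Ctrl and 12.8, 171 and 280.4 in D0 dendritic cells. In microglia it had 69.3, 166 and 243 CPM in Ctrl and 183, 378 and 488 in D0. The groups overlapped in both cell types, and the difference was -4.86 (SE 0.463, adjusted p = 2.0e-08, edgeR) with Ctrl-1 and -2.98 with 10 cells (adjusted p = 3.8e-09, edgeR). In Ctrl-1, the highest library, 1 cell held 157 of the 204 Ccl2 UMIs of dendritic cells. Il1b went from a mean of 164 to 1002 CPM in microglia and from 3822 to 4344 CPM in dendritic cells (difference -2.20, and -2.54 with 10 cells). Of the 4 genes named by the study that the rule did not use, 3 were lower (0.733% over all genes), Il1b, Cd52 and Lgals3. Their dendritic means in Ctrl were 3822, 2424 and 939.9 CPM. The study named these genes for their rise in D0 microglia of these libraries, so this count is a description with no test. Of 16 immediate-early genes 5 were lower (0.733% over all genes), Atf3, Egr1, Ier2, Junb and Nr4a1, and 3 were called again with 10 cells, without Atf3 and Junb (-0.50 and -0.38, adjusted p = 0.379 and 0.613, edgeR). The study named Ccl4 and Egr1 for a cluster enriched in D0 and D2 of these libraries. The inflammatory and immediate-early counts are therefore descriptions too.

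Bhlhe40, a transcription factor of activated myeloid cells, had 359, 229 and 419 CPM in Ctrl and 204, 419.6 and 368 in D0 dendritic cells. In microglia it had 1.21 ± 0.695 CPM in Ctrl and 7.60 ± 2.63 in D0 (SD, n = 3 each), with all D0 libraries above Ctrl. The difference was -4.14 (SE 0.391, adjusted p = 2.0e-08, edgeR), and -2.78 with 10 cells (adjusted p = 9.6e-12, edgeR). S100a4, a calcium-binding protein of motile cells, had 881 ± 121 and 739 ± 188 CPM in Ctrl and D0 dendritic cells and 7.76 ± 6.50 and 23.6 ± 9.11 in microglia (SD, n = 3 each), with a difference of -3.10, and -2.09 with 10 cells (adjusted p = 4.7e-08, edgeR). Slc2a6, a sugar transporter, Mmp12, a macrophage elastase, and Ass1, an enzyme of arginine synthesis, had differences of -3.87, -3.50 and -3.15, and -3.74, -2.63 and -3.67 with 10 cells (adjusted p = 2.7e-05, 0.000174 and 2.0e-08, edgeR). The 3 genes were at 0.19 to 2.16 CPM in Ctrl microglia, and the part of free RNA was not tested. Nor was it tested for Bhlhe40 and S100a4, at means of 1.21 and 7.76 CPM in Ctrl microglia. The Ass1 call was lost with upper-quartile scaling in place of TMM, where the difference was -3.19.

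H2-Aa, H2-Eb1 and H2-Ab1 were among the 11 genes with a higher D0 effect in dendritic cells. They are expressed with Cd74, which chose the dendritic cells and not the microglia, so their values are a description with no test. The mean levels of H2-Aa, H2-Eb1 and H2-Ab1 in microglia were 155, 157 and 154 CPM in Ctrl and 70.0, 62.8 and 84.9 in D0. In dendritic cells they were 12696, 11620.2 and 12699 CPM in Ctrl and 12559, 10989.7 and 11348 in D0. Microglia with at least 100 UMIs of Cd74 per 10000 numbered 58, 21 and 40 in Ctrl and 11, 22 and 16 in D0, and their part in the microglial levels was not tested.

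Ccr2 had 396 ± 28.6 and 469 ± 82.4 CPM in Ctrl and D0 dendritic cells (SD, n = 3 each) and 14.9, 14.7 and 9.32 CPM in Ctrl and 4.06, 6.76 and 8.98 in D0 microglia, with a difference of 1.39 (SE 0.332, adjusted p = 0.0265, edgeR), and 1.24 with 10 cells (adjusted p = 0.000348, edgeR). Wfdc17, a secreted protein of myeloid cells, had 325, 414 and 714 CPM in Ctrl and 721, 839 and 889 in D0 dendritic cells, without overlap, and a difference of 1.81, and 1.47 with 10 cells (adjusted p = 1.5e-06, edgeR). Ifi203 and Mndal, overlapping genes of the interferon-inducible Ifi200 cluster on chromosome 1, had differences of 2.31 and 2.95 (2.65 and 2.51 with 10 cells, adjusted p = 4.5e-10 and 2.3e-09, edgeR), and reads shared between them are uncertain. Ifi203 had 149, 88.8 and 43.8 CPM in Ctrl and 204, 136 and 205 in D0 dendritic cells, with D0-2 below Ctrl-1. Mndal had 85.9, 104 and 75.1 CPM in Ctrl and 139, 120.4 and 205 in D0 dendritic cells, without overlap. In microglia Ifi203 and Mndal had means of 4.49 and 4.997 CPM in Ctrl and 1.33 and 1.57 in D0. Wfdc17 had means of 27.6 CPM in Ctrl and 17.6 in D0 microglia. The part of free RNA in the microglial levels of Ccr2, Wfdc17, Ifi203 and Mndal was not tested. Gpr146, a receptor, had 3.73, 7.40 and 6.26 CPM in Ctrl and 44.6, 25.4 and 32.4 in D0 dendritic cells, without overlap. Each Ctrl level is 1 UMI. It had a difference of 3.63 (SE 0.908, adjusted p = 0.0407, edgeR), and 2.99 with 10 cells (adjusted p = 0.000785, edgeR). The call of Gpr146 was lost in 6 of 19 alternatives, among them DESeq2 (adjusted p = 0.592), the fits without D2-1 or D2-2 (0.0817 and 0.0863) and with 10 cells without Ctrl-1 (0.122, edgeR). That of Ccr2 was lost without D2-1 or D2-2 and by DESeq2 (0.0516, 0.0619 and 0.375), and those of Racgap1 and Mmp12 with 10 cells without Ctrl-1 (0.169 and 0.165), that of Mmp12 also by DESeq2 (0.82). Itgax and Mrc1, used by the rule, were also among the 104 and are given no test.

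**Figure D5:**
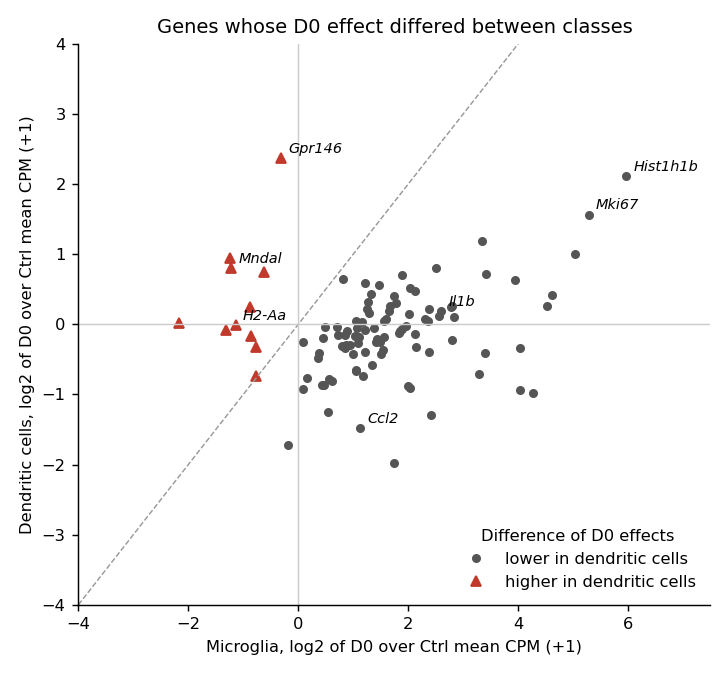
Each of the 104 genes by its change from Ctrl to D0 in microglia (horizontal) and dendritic cells (vertical), as log2 of the ratio of mean CPM + 1 over 3 libraries each. Microglial changes run from -2.18 to 5.97 and dendritic changes from -1.98 to 2.37, with 94 of 104 dendritic changes within 1 of 0.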

How the data were processed

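The authors deposited raw UMI counts per gene and barcode for 9 libraries (10x 3′ chemistry, mm10), made with Cell Ranger (3.1.0 per the labels, 3.0.2 or 3.1.0 per the file headers), with no normalization. Of 36391 deposited barcodes, a barcode was kept if it held 500 to 20000 UMIs and no fewer than 200 genes, with mitochondrial UMIs making up 10% or less. The cell rule and the gene lists were chosen with earlier results of these data known. Cells were assigned to 9 classes by marker genes. Counts were summed over the cells of a class in each library and tested with edgeR 4.0.16 (quasi-likelihood, TMM, low-count filter, Benjamini-Hochberg over all genes, threshold 0.05), with DESeq2 1.42.0 as an alternative, in R 4.3.3. Cell numbers per class were tested likewise against all kept barcodes. D2-3 was left out of these fits. The scripts were tested on simulated data.

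A library entered the gene fits with at least 20 dendritic cells. The minimum of 10 was added after the cell numbers were seen. The text names, for each comparison, the called genes with the 10 largest rises and falls, and members of the lists. Such a called gene also needed 20 CPM or more in dendritic cells, on the higher side, and groups that stay apart. Mgl2, Klrd1, Sirpa and the other list members with values but no call were picked after their values were seen. For the comparison with microglia, overlap was judged on the ratio of the cell types in each library. Genes of the rule were left out of the list counts and, like MHC class II genes, are given as values with no test. Intervals and limits for a count of 0 cover counting error only. Nothing links replicate numbers of different groups to shared animals, and p-values measure the spread between libraries. Alternatives covered the scaling, the filters, the thresholds of the rule, the depth, the header version and each library left out. The comparison with border macrophages was not run, since D0 and D2 libraries held 0 to 2 of them. Figures were drawn with matplotlib 3.10.9.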

Additional observations from a re-analysis of the deposited data

Results flagged for a closer look

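The D0 effect differed between dendritic cells and microglia for 104 genes, by the test of the difference itself. The count includes Itgax and Mrc1, genes of the rule, and H2-Aa, H2-Eb1 and H2-Ab1, expressed with Cd74, which are given no test. The fit behind it held Ctrl-1 as its only Ctrl library. The value from the fit with at least 10 cells and 3 Ctrl libraries therefore stands beside each gene below. These 15 genes were called again in that fit. The effect was lower in dendritic cells, on the log2 scale, for Hist1h1b (-6.55, and -5.66 with 10 cells), Ccl2 (-4.86, and -2.98 with 10 cells), Mki67 (-4.54, and -4.36 with 10 cells), Racgap1 (-4.53, and -4.29 with 10 cells), Bhlhe40 (-4.14, and -2.78 with 10 cells). It was also lower for Slc2a6 (-3.87, and -3.74 with 10 cells), Dna2 (-3.78, and -3.24 with 10 cells), Mmp12 (-3.50, and -2.63 with 10 cells), Ass1 (-3.15, and -3.67 with 10 cells) and S100a4 (-3.10, and -2.09 with 10 cells). It was higher for Ccr2 (1.39, and 1.24 with 10 cells), Wfdc17 (1.81, and 1.47 with 10 cells), Ifi203 (2.31, and 2.65 with 10 cells), Mndal (2.95, and 2.51 with 10 cells) and Gpr146 (3.63, and 2.99 with 10 cells). Of the Ccl2 UMIs in Ctrl-1 dendritic cells, 157 of 204 lay in 1 cell.

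D2-3, left out of the comparisons, held dendritic cells at 2.77% of kept barcodes, above the Ctrl mean of 0.437%. In this library, in which 42.8% of barcodes were microglia, they were 4.84% of barcodes that are not microglia, within the Ctrl range of 4.11% to 5.39%. They numbered 16.9 per 100 neutrophils, within the Ctrl range, and 11.2 per 100 monocytes, below every Ctrl library (17.1 to 300).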

How the results depend on the processing

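The rise in the dendritic share kept its direction and its side of the threshold in 12 of 19 alternatives in D0 and in 12 of 19 in D2. The D0 log2 change missed the threshold as a share of barcodes that are not microglia (1.19), with a term for the header version (2.35) and in the 3.0.2 libraries alone (2.35), and for D2 these were 0.95, 2.30 and 2.30. The exact permutation test of the difference in share (2.09 and 2.02 percentage points) could not pass. With each library left out the log2 change ranged from 2.33 to 2.76 in D0 (lost without Ctrl-1, Ctrl-3 or D0-3) and from 1.67 to 3.00 in D2 (lost without Ctrl-1, Ctrl-3 or D2-2). Genes called in D0 numbered 1 by DESeq2, 83 with no low-count filter and 0 to 81 with a library left out (81 without D0-1). With at least 10 cells they numbered 4 by DESeq2 and 0 to 8 with a library left out (8 without D0-1). Genes called in D2 numbered 2 by DESeq2, 53 with no filter, 71 with only Ctrl and D2 fitted and 0 to 21 with a library left out (21 without D0-1). With at least 10 cells they numbered 1, also 1 without Xcr1, Clec9a or Ccr7 cells and 1 without mitotic cells, 0 with the version term, with D2-3, thinned or without cells rich in microglia transcripts, 7 by DESeq2 and 0 to 6 with a library left out. The 104 genes that differed from microglia became 168 with no filter, 1 with D2-3, 76 to 234 with a library left out, 261 with at least 10 cells, 260 of those cells without the ones rich in microglia transcripts, and 126 to 280 with 10 cells and a library left out (126 without Ctrl-1, 215 without Ctrl-2, 176 without Ctrl-3, 280 without D0-1, 155 without D0-2, 258 without D0-3, 276 without D2-1 and 273 without D2-2). Hist1h1b reversed with 10 cells and without Ctrl-1 (4.08, adjusted p = 0.970, edgeR). The causes of these shifts were not tested. With a replicate block the share changes were 2.44 and 2.37 and the genes called 2 in D0 and 2 in D2 (3 and 0 with 10 cells). Of 7 same-numbered pairs 2 had a correlation over 0.1 (0.0488 to 0.248), so the numbers are not read as a pairing. With 20 cells, fits without Ctrl-1, with the version as a term, thinned, or without the cDC1 and Ccr7 cells or those rich in microglia transcripts were not run, since no Ctrl library or only 1 version was left. With 12 to 21 dendritic cells a Ctrl library, small changes could not be seen.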
